A study of Homo sapiens with 28 samples.

Results

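Expression of 10 genes of the extracellular matrix protease system, the matrix metalloproteinases (MMPs) MMP1, MMP2, MMP7, MMP9, MMP14, MMP15 and MMP24 and the tissue inhibitors of metalloproteinases (TIMPs) TIMP1, TIMP2 and TIMP3, was examined in human colorectal cancer (CRC) cell lines with altered TWIST1. The genes were taken by name from the 62703 genes of the deposited count tables, and all 10 were found. RNA-seq was available for 8 groups of 3 libraries. MDST8, a CRC line of the mesenchymal CMS4 subtype, was represented by WT cells and by TWIST1 knockout (KO) clones 1.1, 2.2, 3.2, 3.5 and 3.6, each grown from a single cell after electroporation of Cas9 with a guide RNA. LoVo, a CRC line outside CMS4, was represented by libraries labelled shRNA control and libraries labelled TWIST1 shRNA, and each line also had a TWIST1 ChIP-seq peak list from wild-type cells. Clone 1.1 carries the guide label TG1, clone 2.2 carries TG2, and clones 3.2, 3.5 and 3.6 share TG3. A difference between clones of different labels is thus a difference between single-cell-derived lines as well as between guides. Among clones 3.2, 3.5 and 3.6 it is a difference between single-cell-derived lines under the same guide label. The 3 libraries of a group carry separate labels, but nothing in the labels says whether they came from separate cultures, and p-values then measure the spread between these libraries, which may be technical.

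The genes lie apart in the genome except for MMP1 (ENSG00000196611.6, chr11:102789401-102798160) and MMP7 (ENSG00000137673.9, chr11:102520508-102530750), which share the MMP cluster of chromosome 11 and are both on the minus strand. The other MMP genes are MMP2 (ENSG00000087245.13, chr16:55389700-55506691), MMP15 (ENSG00000102996.5, chr16:58025754-58046901), MMP9 (ENSG00000100985.7, chr20:46008908-46016561), MMP24 (ENSG00000125966.10, chr20:35226690-35276998) and MMP14 (ENSG00000157227.14, chr14:22836560-22849041), all on the plus strand of hg38. TIMP1 (ENSG00000102265.12, chrX:47582408-47586789) and TIMP3 (ENSG00000100234.12, chr22:32801705-32863041) lie on the plus strand inside the synapsin genes SYN1 and SYN3, without shared exon sequence, and TIMP2 (ENSG00000035862.13, chr17:78852977-78925387) lies on the minus strand.

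MMPs are zinc-dependent endopeptidases that cleave collagens, gelatin, laminin and other matrix and cell surface proteins, and are made as latent precursors. MMP1 is a collagenase, MMP2 and MMP9 are gelatinases, MMP7 (matrilysin) is a small MMP without a hemopexin domain, and MMP14, MMP15 and MMP24 are membrane-type enzymes held at the cell surface. TIMPs bind the active site of MMPs and block it. TIMP2 has a further role, since a complex of MMP14 with TIMP2 at the cell surface is the receptor on which the MMP2 precursor is activated, while TIMP3 differs from the other inhibitors in that it binds to the matrix.

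Depth and identity of the libraries were checked before the genes were compared. Total counts ran from 16567606 to 22217009 per library. TWIST1 itself gave 845, 1034 and 797 counts in WT and 553 to 1195 in the KO clones, and since an edit in the coding sequence need not lower the RNA, these counts do not check the knockout. In LoVo the targeted gene ran against the labels: the libraries labelled TWIST1 shRNA held 73, 89 and 93 TWIST1 counts, and each library labelled shRNA control held 0, which allows up to 3 counts. The LoVo groups are therefore named by their labels throughout, and no direction of TWIST1 change is read from them. Replicate 1 of the libraries labelled TWIST1 shRNA held 10.9% of its counts on mitochondrial genes, and replicates 2 and 3 held 6.24% and 5.47%, against 3.49% to 3.96% under shRNA control and 2.38% to 4.37% in MDST8. The mitochondrial share thus moved with the LoVo labels, and its part in the LoVo results was not tested. Over all genes, replicate 1 also stood apart from replicates 2 and 3 of its group. The chi-square per degree of freedom between their counts was 20.6 and 31.5, against 4.44 between replicates 2 and 3. Of the 8 colon epithelial markers, CDH1, CDX1 and CDX2 had 0 counts in MDST8 WT, and the summed level of the list was 70.0 to 75.9 CPM (TMM-normalized counts scaled to a common library size) in WT, 63.5 to 135 CPM in the KO clones, 7420 to 7702 CPM in the LoVo libraries labelled shRNA control and 3822 to 4234 CPM in those labelled TWIST1 shRNA.

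The proximal promoters are shown for the genes that had a listed TWIST1 peak within 1000 bp of the 5′ end in either line and an entry among the RefSeq promoters. Of the 10 genes, 6 (MMP7, MMP14, MMP15, MMP24, TIMP1 and TIMP3) had such an entry. Each line gives the 120 bases before the transcription start, 5′ to 3′ along the gene. Capitals mark TGANTCA (the AP-1 site), TATAAA on the gene's strand, CATCTG (an E-box that TWIST1 can bind) and GGGCGG (a GC box), with CATCTG and GGGCGG marked on both strands.
MMP7 promoter, GRCh38.p14 chr11:102530748-102530867, minus strand: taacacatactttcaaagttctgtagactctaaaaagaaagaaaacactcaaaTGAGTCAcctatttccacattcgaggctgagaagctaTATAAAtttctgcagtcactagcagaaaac
MMP14 promoter, GRCh38.p14 chr14:22836465-22836584, plus strand: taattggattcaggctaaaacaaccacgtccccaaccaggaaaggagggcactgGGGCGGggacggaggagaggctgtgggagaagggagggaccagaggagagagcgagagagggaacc
MMP15 promoter, GRCh38.p14 chr16:58025634-58025753, plus strand: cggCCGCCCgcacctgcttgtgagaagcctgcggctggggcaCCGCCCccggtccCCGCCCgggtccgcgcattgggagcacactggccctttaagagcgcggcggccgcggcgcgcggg
TIMP3 promoter, GRCh38.p14 chr22:32801585-32801704, plus strand: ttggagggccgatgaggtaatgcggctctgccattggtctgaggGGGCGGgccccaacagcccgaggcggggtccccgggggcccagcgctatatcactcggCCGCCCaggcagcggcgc
In the 250 bases before the start, MMP7 held both an AP-1 site, TGAGTCA from -67 to -61, and a TATA box from -30 to -25. TGANTCA was present in 6.57% of all 35116 RefSeq promoters and TATAAA in 6.8%, and among the 6 promoters read here both were found in that of MMP7 alone. GGGCGG was found in the other 5, MMP14, MMP15, MMP24, TIMP1 and TIMP3, against 42.6% of all promoters. CATCTG was found in that of MMP14, from -192 to -187 and outside the bases shown, against 12.2% of all promoters. A match of letters is a description of the sequence and does not show that a factor was bound.

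In MDST8 WT the membrane-type enzyme MMP14 and the gelatinase MMP2 were the highest of the 10 genes per kilobase of exon, at 292 ± 12.7 and 255 ± 6.14 CPM per kb (SD, n = 3). TIMP2 followed at 115 ± 5.65 and TIMP1 at 102 ± 7.81 CPM per kb, whereas MMP1 reached 39.7 ± 4.18 and MMP15 11.9 ± 0.428 CPM per kb. MMP24 was low, at 0.684 ± 0.0962 CPM per kb. MMP7, MMP9 and TIMP3 did not pass the filter on low counts in MDST8. MMP9 gave at most 5 counts in any of the 24 libraries, and MMP7 gave at most 6 counts in any MDST8 library.

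LoVo had another profile. In the libraries labelled shRNA control, TIMP1 was the highest per kilobase at 72.5 ± 1.29 CPM per kb, followed by MMP15 at 35.4 ± 1.71, MMP14 at 18.1 ± 0.767, TIMP2 at 9.20 ± 0.741, MMP7 at 8.32 ± 0.809 and TIMP3 at 2.32 ± 0.193 CPM per kb (SD, n = 3). MMP2 had 0 counts in all 3 of these libraries. Between MDST8 WT and these LoVo libraries, 8 of the 9 tested members were called. Calls rest on edgeR's quasi-likelihood test over all genes tested, and require a log2 fold change beyond 0.58 in either direction together with an adjusted p (Benjamini-Hochberg) under 0.05. The call was made for 66.5% of all genes tested. Genes entered this test if they passed the filter on low counts in either line, so MMP1, MMP2 and MMP24 entered through MDST8 alone and MMP7 and TIMP3 through LoVo alone, the line in which each was higher, and the count of members called supports nothing by itself. Of the members, 5 were higher in MDST8 WT, against 33.4% of all genes, and 3 were lower, against 33.1%. MMP2 was at least 7077-fold higher in MDST8 WT, with the LoVo level set at a floor of 3 counts per library. MMP1 was higher in MDST8 WT by 8.02 ± 0.17 on the log2 scale (SE, edgeR adjusted p = 7.64e-31), MMP14 by 4.01 ± 0.05 (adjusted p = 1.55e-37), TIMP2 by 3.64 ± 0.06 (adjusted p = 1.09e-34) and MMP24 by 1.79 ± 0.24 (adjusted p = 2.06e-08). MMP7, TIMP3 and MMP15 were lower, with log2 fold changes of -8.01 ± 0.41, -3.78 ± 0.21 and -1.57 ± 0.07. TIMP1 was not called, at 0.50 ± 0.05. Cell line and every other difference between the lines cannot be told apart in this comparison.

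**Figure D1:**
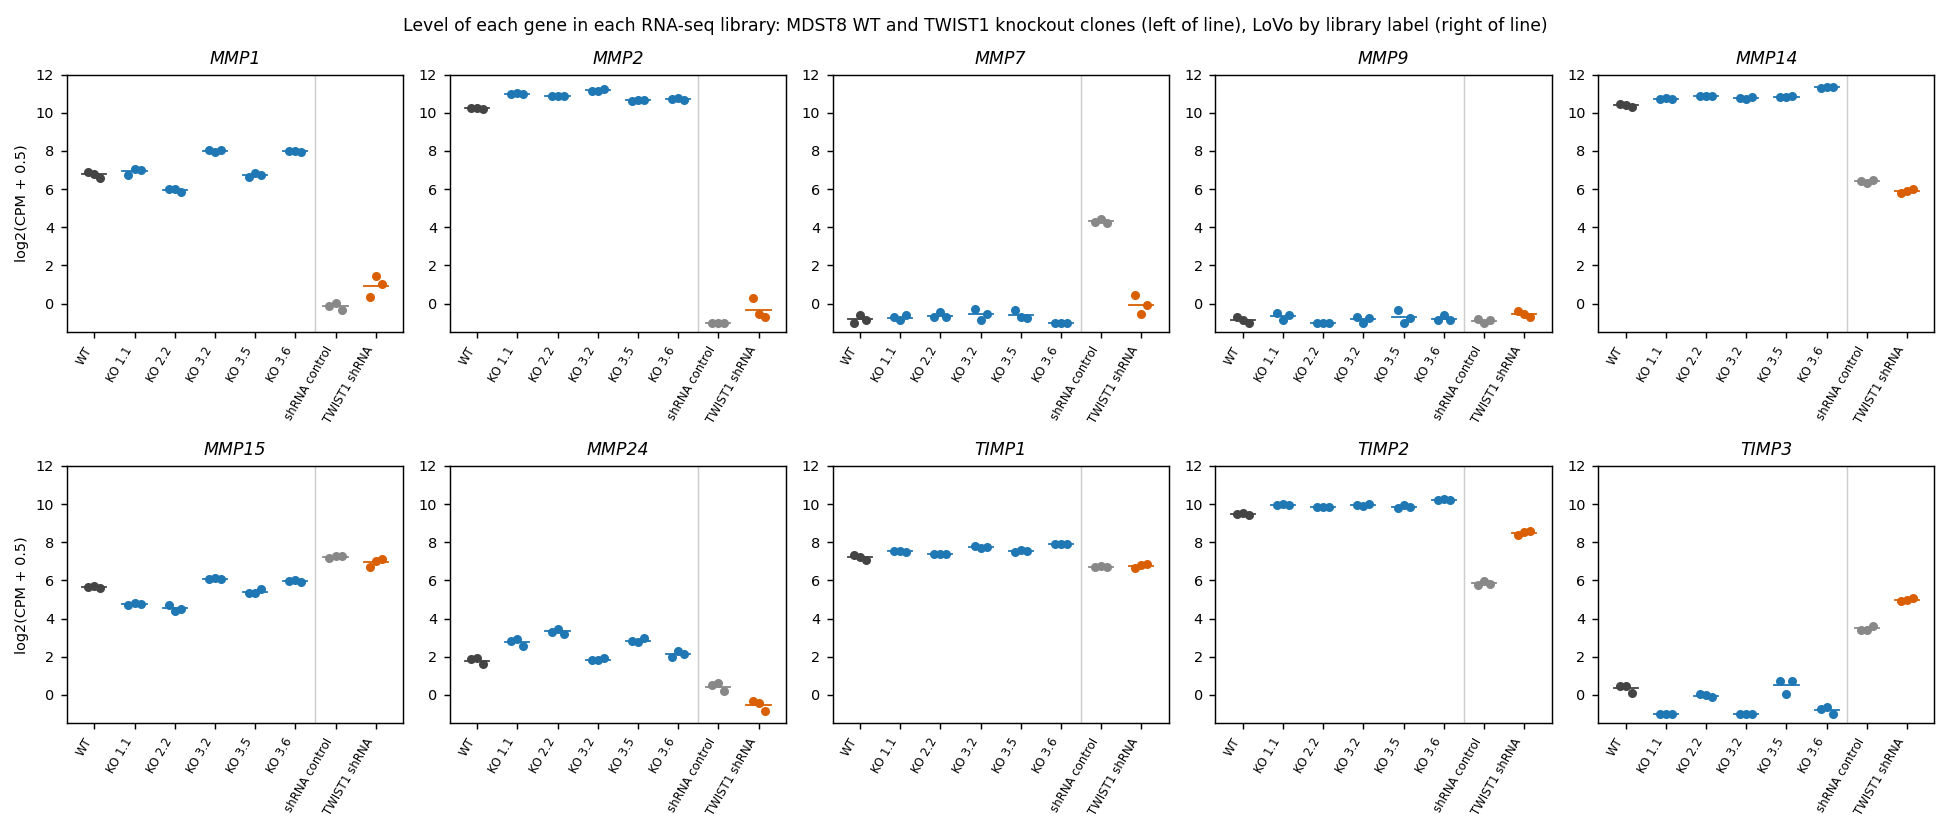
Level of each of the 10 genes as log2(CPM + 0.5) in each of the 24 RNA-seq libraries (points) with the mean of the 3 libraries of a group (bars), for MDST8 WT and 5 KO clones left of the line and the LoVo libraries by their labels right of it. MMP2, MMP14 and TIMP2 were the highest in MDST8, MMP7 was above the filter in LoVo alone, and TIMP2 and TIMP3 stood higher under the label TWIST1 shRNA than under shRNA control.

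To examine the TWIST1 KO clones, each was compared with the same 3 WT libraries, so the 5 comparisons share their controls. In clone 1.1, 3 of 7 tested members were called, against 19.5% of all genes tested, with 2 higher (12% of all genes) and 1 lower (7.49%). In clone 2.2, 4 of 7 were called, against 14.7%, with 2 higher (8.05%) and 2 lower (6.64%). In clone 3.2, 2 of 7 were called, against 17%, both higher (10.9%) and none lower (6.09%). In clone 3.5, 1 of 7 was called, against 18.5%, and it was higher (11.2%, with 7.25% of all genes lower). In clone 3.6, 4 of 7 were called, against 27.0%, all of them higher (15.3%, with 11.7% of all genes lower). The median log2 fold change of the 7 members ran from 0.33 in clone 1.1 to 0.69 in clone 3.6, and that of all genes tested was between -0.01 and 0.0028. No member was called in all 5 clones, and the share of all genes called in all 5 was not counted. The summed level of 10 fibroblast and mesothelial markers also differed between clones, at 698 to 715 CPM in WT, 1339 to 1503 CPM in clone 1.1, 689 to 729 CPM in 2.2, 883 to 951 CPM in 3.2, 1017 to 1080.1 CPM in 3.5 and 535 to 545 CPM in 3.6, and its part in the member results was not tested. Leukocyte markers summed to at most 0.556 CPM in every group.

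The gelatinase MMP2 was called higher in clones 1.1, 2.2 and 3.2. It measured 1221, 1213 and 1167 CPM in WT, 2007, 2106 and 2036 CPM in clone 1.1, 1906, 1890.4 and 1906 CPM in clone 2.2, and 2275, 2269.9 and 2380 CPM in clone 3.2. Clones 3.5 and 3.6 measured 1576 to 1651 CPM and 1616 to 1759 CPM. The WT libraries lay below the libraries of each clone. The log2 fold changes were 0.77 ± 0.03, 0.65 ± 0.03 and 0.94 ± 0.04 in clones 1.1, 2.2 and 3.2 (SE, edgeR adjusted p = 1.18e-19, 2.19e-17 and 5.60e-22). In clones 3.5 and 3.6 they were 0.43 ± 0.03 and 0.48 ± 0.03, which is under the fold threshold, with adjusted p of 8.23e-13 and 2.21e-14.

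MMP14, which activates the MMP2 precursor at the cell surface, was called in clone 3.6 alone. It measured 1392, 1370.4 and 1282 CPM in WT and 2529, 2623 and 2639.8 CPM in clone 3.6, a log2 fold change of 0.95 ± 0.04 (SE, edgeR adjusted p = 3.21e-22). The other clones ran from 1663 to 1889 CPM, also above the range of WT, with log2 fold changes of 0.33 ± 0.04 in clone 1.1, 0.47 ± 0.04 in 2.2, 0.38 ± 0.04 in 3.2 and 0.43 ± 0.04 in 3.5. In these 4 clones the adjusted p was at most 6.67e-10 and the fold threshold was not reached. A low p by itself was common, as 8257 (clone 2.2) to 9768 (clone 3.6) of all 13706 genes tested had an unadjusted edgeR p below 0.05.

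The inhibitors TIMP1 and TIMP2 were likewise called higher in clone 3.6 alone. TIMP2 measured 711, 748 and 678 CPM in WT and 1173, 1211 and 1181 CPM in clone 3.6, a log2 fold change of 0.74 ± 0.04 (SE, edgeR adjusted p = 5.33e-19). Its fold changes in the other clones were 0.35 to 0.48 on the log2 scale, below the threshold. TIMP1 measured 158, 149.7 and 136 CPM in WT and 242, 240.5 and 235 CPM in clone 3.6, a log2 fold change of 0.69 ± 0.04 (adjusted p = 1.17e-16). In clone 3.2 TIMP1 stood at 0.53 ± 0.04 and came past the threshold, at 0.60, when WT replicate A was left out. WT replicate A held the highest TIMP1 level of the WT libraries. Clones 1.1, 2.2 and 3.5 gave TIMP1 fold changes of 0.32, 0.17 and 0.32.

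MMP1, the interstitial collagenase, split the clones. It measured 118, 112 and 96.0 CPM in WT, 262, 245 and 261 CPM in clone 3.2 and 251, 253 and 247 CPM in clone 3.6, but 63.2, 63.3 and 57.7 CPM in clone 2.2. Clones 3.2 and 3.6 lay above WT, clone 2.2 lay below it, and clones 1.1 (106 to 131 CPM) and 3.5 (96.9 to 114 CPM) overlapped it. The log2 fold changes were 1.23 ± 0.06 in clone 3.2 (SE, edgeR adjusted p = 1.68e-18), 1.20 ± 0.06 in clone 3.6 (adjusted p = 1.29e-18) and -0.83 ± 0.07 in clone 2.2 (adjusted p = 1.18e-12). Clone 3.5, which shares the guide label of 3.2 and 3.6, gave -0.05 ± 0.06. MMP1 therefore differed between clones of the same guide label.

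Of the membrane-type enzymes, MMP15 was called lower in clones 1.1 and 2.2. It measured 50.2, 52.3 and 48.7 CPM in WT, 25.7, 27.8 and 26.9 CPM in clone 1.1 and 25.5, 20.8 and 22.3 CPM in clone 2.2. The log2 fold changes were -0.91 ± 0.06 and -1.15 ± 0.07 (SE, edgeR adjusted p = 1.45e-14 and 1.07e-16). In clones 3.2 and 3.6 MMP15 stood above the WT range, at 65.7 to 68.7 CPM and 60.8 to 63.7 CPM, with log2 fold changes of 0.41 and 0.30 that did not reach the threshold, and clone 3.5 gave -0.26.

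MMP24 was the lowest of the tested members in MDST8 and was called higher in clones 1.1, 2.2 and 3.5. It gave 59, 66 and 50 counts in WT, 126, 150 and 101 in clone 1.1, 183, 215 and 166 in clone 2.2 and 110, 119 and 144 in clone 3.5. The log2 fold changes were 1.08 ± 0.15, 1.67 ± 0.15 and 1.15 ± 0.15 (SE, edgeR adjusted p = 2.21e-07, 9.35e-12 and 7.45e-08), against 0.05 ± 0.17 in clone 3.2 (55 to 68 counts) and 0.39 ± 0.16 in clone 3.6 (77 to 89 counts), which were not called. Of its exon sequence, 22.1% overlaps genes on the opposite strand, mainly MMP24OS. The counting did not use strand, and fragments on more than 1 gene were left out of the counts. MMP24OS measured 57.4 CPM on average in WT, 64.5 in clone 1.1, 78.9 in 2.2, 51.5 in 3.2, 76.1 in 3.5 and 62.2 in 3.6, and its part in the MMP24 counts was not tested.

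**Figure D2:**
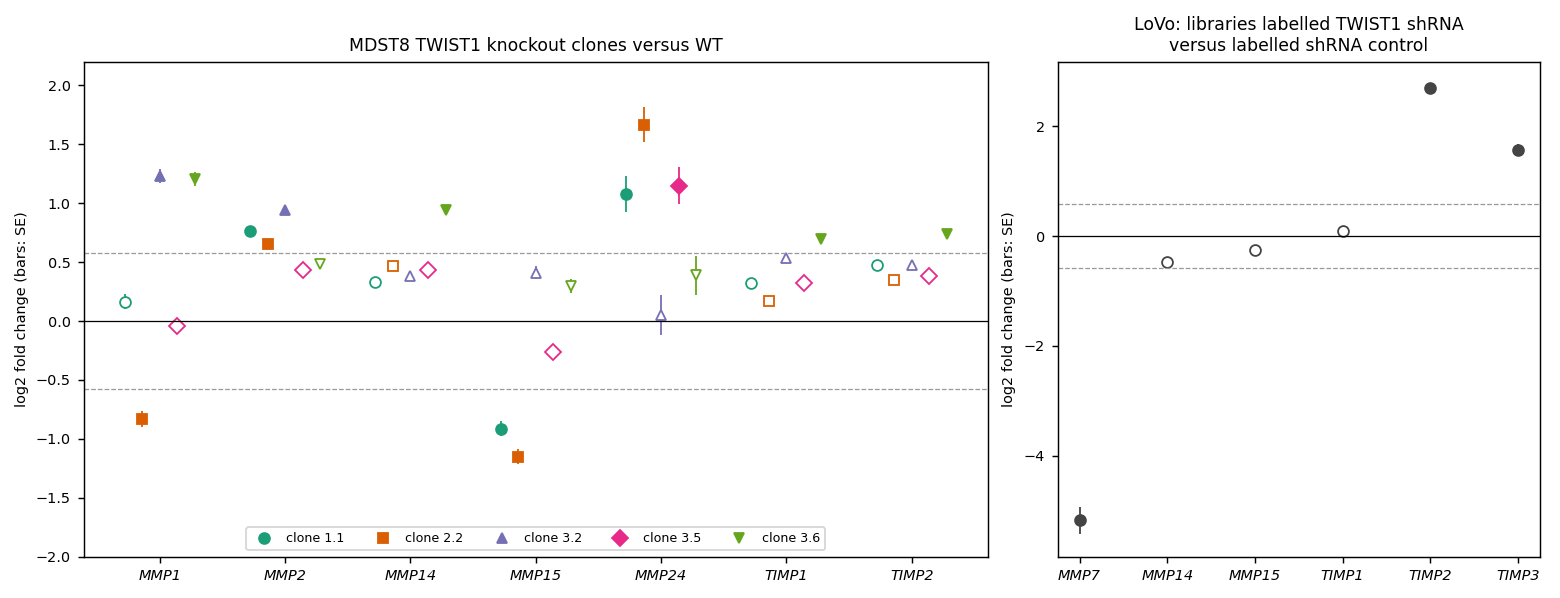
Log2 fold changes with their standard errors from edgeR for the 7 members tested in MDST8 (each KO clone against WT, left) and the 6 tested in LoVo (libraries labelled TWIST1 shRNA against those labelled shRNA control, right). Filled markers were called and dashed lines mark an absolute log2 fold change of 0.58. The clones spread from -0.83 to 1.23 for MMP1 and from -1.15 to 0.41 for MMP15, while in LoVo the values ran from -5.18 for MMP7 to 2.69 for TIMP2.

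TIMP3, the inhibitor that binds to the matrix, was too low in MDST8 to pass the filter, and its counts are given as they stand. WT libraries held 17, 17 and 11 counts, and those of clone 2.2 held 10, 10 and 8 and those of clone 3.5 held 20, 10 and 23. Clones 1.1 and 3.2 held 0 counts in every library, and clone 3.6 held 2, 3 and 0. With the floor of 3 counts per library, TIMP3 was at least 5.07-fold lower in clone 1.1 and at least 5.23-fold lower in clone 3.2 than in WT. Without the filter on low counts, edgeR called TIMP3 lower in clone 1.1 (adjusted p = 8.72e-10), clone 3.2 (adjusted p = 7.12e-10) and clone 3.6 (adjusted p = 4.95e-06) and did not call it in 2.2 (adjusted p = 0.419) or 3.5 (adjusted p = 0.793). The exact two-sided permutation test of 3 libraries against 3 gave p = 0.1 for clones 1.1, 2.2, 3.2 and 3.6, the smallest it can give, and p = 0.6 for clone 3.5.

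All 7 tested members differed among the 5 clones in an F test with an adjusted p of at most 3.79e-11, but 81.0% of all 13706 genes tested did so too. The widest range of group means over WT and the 5 clones was that of MMP1, at 2.05 on the log2 scale, with clone 3.2 highest and clone 2.2 lowest. MMP15 followed at 1.54, with the same highest and lowest clones, and MMP24 at 1.53, with clone 2.2 highest and WT lowest. For TIMP2, neighbours in the order 1.1, 3.2, 3.5 and 2.2 overlapped, whereas clone 3.6 and WT stood apart at either end. For MMP14, clones 3.5, 3.2 and 1.1 overlapped with their neighbours, and clone 3.6 stood apart as the highest.

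The genes whose levels followed these 3 most variable members most closely across the 18 MDST8 libraries were then listed, as a description over 6 groups of 3 libraries that share WT and clone identity. For MMP1 they were GABRG3-AS1 (Pearson r = 0.957), HPGD (0.951), which inactivates prostaglandins, and GNPDA2 (0.940). For MMP15 they were SCRN1 (0.950), the glycosyltransferase gene C1GALT1 (0.939) and the receptor tyrosine kinase gene EGFR (0.926). For MMP24 they were the proteasome activator gene PSME2 (0.942), the neurotrophin gene NTF3 (0.933) and MOB3B (0.916).

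Ratios within a library do not depend on its scaling, and were used to set the enzymes against the inhibitors. MMP14 stood at 2.54 ± 0.0849 times TIMP2 per kb in WT (SD, n = 3) and at 2.29 to 2.94 times TIMP2 in the clone means. Clones 1.1 (2.28 to 2.30) and 3.2 (2.36 to 2.42) lay below the WT range of 2.46 to 2.63, clones 2.2 (2.75 to 2.77) and 3.6 (2.89 to 3.00) lay above it, and clone 3.5 overlapped it. MMP2 stood at 2.22 ± 0.0747 times TIMP2 in WT, at 2.72 ± 0.0354 in clone 1.1, 2.75 ± 0.0172 in 2.2, 3.07 ± 0.0724 in 3.2, 2.30 ± 0.0459 in 3.5 and 1.86 ± 0.0557 in 3.6. For this ratio clones 1.1, 2.2 and 3.2 lay above WT, clone 3.6 lay below it and clone 3.5 overlapped it. The ratio of MMP2 to MMP14 separated the clones further. It was 0.861, 0.869 and 0.895 in WT, 1.27, 1.31 and 1.27 in clone 3.2, 1.19, 1.20 and 1.18 in clone 1.1 and 0.642, 0.659 and 0.601 in clone 3.6. Clone 3.5, at 0.869 to 0.881, overlapped WT. The exact two-sided permutation test gave p = 0.1, the smallest possible with 3 libraries against 3, for clones 1.1, 2.2, 3.2 and 3.6, and p = 0.9 for clone 3.5.

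**Figure D3:**
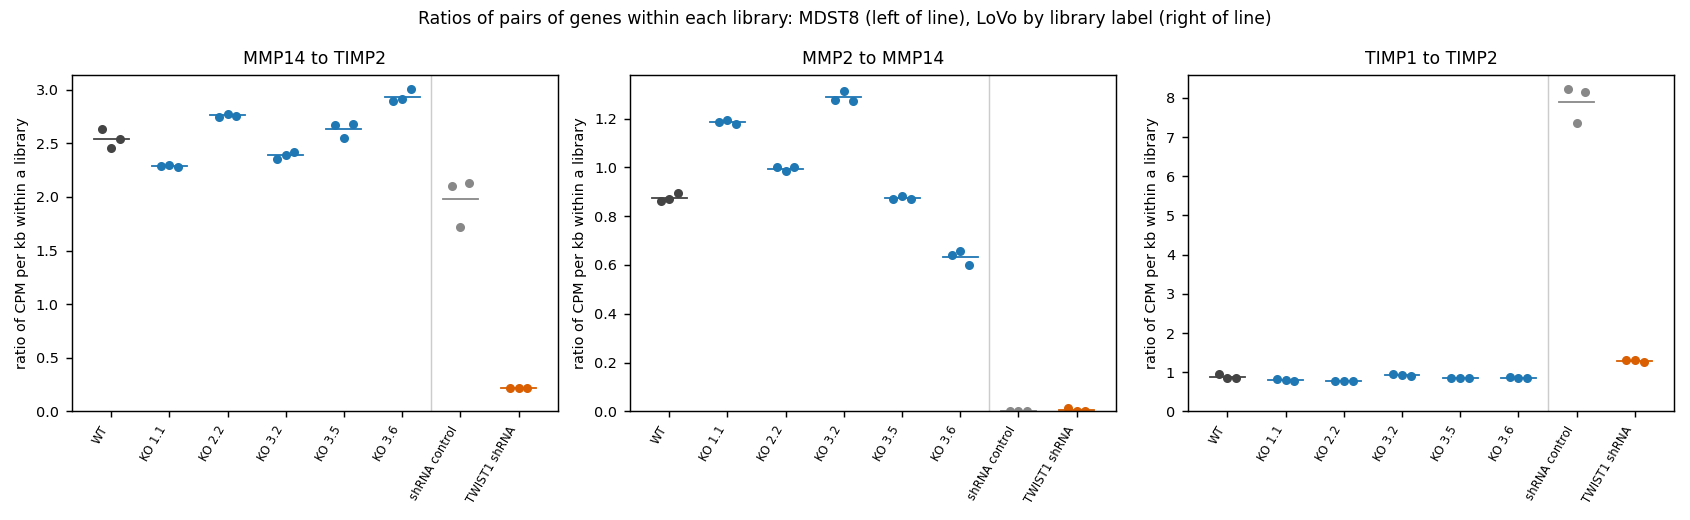
Ratios of CPM per kb between pairs of genes within each library (points) with the mean of each group (bars), for MDST8 left of the line and LoVo, by label, right of it. MMP14 to TIMP2 was 2.29 to 2.94 in the clone means and was 1.99 under shRNA control and 0.219 under TWIST1 shRNA in LoVo, MMP2 to MMP14 ran from 0.634 in clone 3.6 to 1.29 in clone 3.2, and TIMP1 to TIMP2 was 7.91 in the libraries labelled shRNA control.

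In LoVo, 6 members passed the filter and 3 were called between the labelled groups, against 52.7% of all genes tested. The filter took both labelled groups together, so MMP7 entered through the libraries labelled shRNA control, the group in which it was higher. The count of members called therefore supports nothing by itself. Under the label TWIST1 shRNA, MMP7 was lower (26.1% of all genes were) and TIMP2 and TIMP3 were higher (26.6% were). MMP7 measured 18.6, 21.4 and 17.9 CPM under shRNA control and 0.886, 0.175 and 0.446 CPM under TWIST1 shRNA, where it fell to 17, 3 and 8 counts. Its log2 fold change was -5.18 ± 0.25 (SE, edgeR adjusted p = 9.31e-12), and -5.87 ± 0.26 without replicate 1, the library with the high mitochondrial share. The 18 MDST8 libraries held 0 to 6 MMP7 counts.

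TIMP2 measured 54.0, 62.4 and 54.9 CPM under shRNA control and 329, 368 and 389.7 CPM under TWIST1 shRNA, a log2 fold change of 2.69 ± 0.07 (SE, edgeR adjusted p = 6.84e-15). TIMP3 rose from 10.1, 10.2 and 11.7 CPM to 29.2, 31.3 and 33.2 CPM, a log2 fold change of 1.58 ± 0.10 (adjusted p = 2.62e-10). The groups did not overlap for either gene. TIMP1 was not called, with 103 to 107 CPM and 101 to 115 CPM and a log2 fold change of 0.09 ± 0.06 (edgeR adjusted p = 0.211). Without replicate 1 of the libraries labelled TWIST1 shRNA it was 0.16 ± 0.06 (adjusted p = 0.0183), still under the fold threshold. MMP14 measured 80.0 to 87.0 CPM and 54.5 to 62.8 CPM, and MMP15 measured 141 to 155 CPM and 104 to 136 CPM, with log2 fold changes of -0.48 ± 0.07 and -0.26 ± 0.08 that did not reach the fold threshold, the second being -0.14 ± 0.06 without replicate 1.

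The ratio of MMP14 to its partner TIMP2 also separated the LoVo groups. MMP14 stood at 1.72 to 2.13 times TIMP2 per kb under shRNA control and at 0.222, 0.219 and 0.216 times TIMP2 under TWIST1 shRNA. TIMP1 stood at 7.91 ± 0.475 times TIMP2 and at 1.29 ± 0.0241 times TIMP2 (SD, n = 3), against 0.785 to 0.931 in the MDST8 groups. Both differences had an exact two-sided permutation p of 0.1, the smallest possible here. Many other genes moved with this contrast. Of the 8 colon epithelial markers, 7 were called lower under TWIST1 shRNA, with VIL1 at -4.28 and KRT20 at -4.25 on the log2 scale, while COL1A1 and MSLN were higher by 4.39 and 3.75 and PDGFRB and UPK3B were lower, at -1.25 and -1.13. The summed level of the 10 fibroblast and mesothelial markers was 16.5 to 22.5 CPM and 202 to 226 CPM in these groups, with DCN and LUM at 0 counts in the libraries labelled TWIST1 shRNA. The part of these differences in the results for MMP7, TIMP2 and TIMP3 was not tested. In bulk RNA, fewer cells of a type and less RNA per cell cannot be told apart.

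The 4 members that did not pass the LoVo filter were near the limit of detection. MMP1 gave 7, 10 and 5 counts under shRNA control and 15, 38 and 27 under TWIST1 shRNA, and MMP24 gave 15, 20 and 11 against 6, 4 and 1. MMP2 gave 0 in each library labelled shRNA control and 14, 3 and 2 under TWIST1 shRNA, where replicate 1 holds most of the counts. MMP24OS moved the other way from MMP24, from 16.8 ± 0.597 to 50.8 ± 5.68 CPM (SD, n = 3). Without the filter, edgeR called MMP1 higher by 1.81 ± 0.45 on the log2 scale (adjusted p = 0.000173), MMP24 lower, at -2.08 ± 0.61 (adjusted p = 0.00182), and MMP2 higher (adjusted p = 0.00114), for which no fold is given as the lower group is at 0. MMP9 was not called (adjusted p = 0.255), with 1, 0 and 1 counts under shRNA control and 5, 3 and 2 under TWIST1 shRNA. Its groups did not overlap, with an exact two-sided permutation p of 0.1, the smallest possible here, but most of these counts are at or under the floor of 3.

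The difference between labelled groups in LoVo was set against the mean difference of the 5 clones from WT in MDST8, for the 4 members that passed the filter in both lines. Of these, 3 differed, against 79.0% of all genes tested at an adjusted p below 0.05, with 1 positive (38.9% of all genes) and 2 negative (40.1%). TIMP2 differed by 2.16 ± 0.07 on the log2 scale (SE, edgeR adjusted p = 6.13e-24), its rise between the LoVo labels being larger than that in the clones. MMP14 differed by -1.03 ± 0.06 (adjusted p = 3.68e-16), being lower in the LoVo libraries labelled TWIST1 shRNA and higher in the clones, and TIMP1 differed by -0.36 ± 0.06 (adjusted p = 3.13e-06). For MMP15 the difference was 0.02 ± 0.09 (adjusted p = 0.806). As the LoVo labels and the TWIST1 counts disagree, the contrast was also taken with the LoVo difference turned, an alternative added after the data were seen, in which 3 of the 4 members again differed, against 78.9% of all genes tested. The value was then -0.03 ± 0.06 for MMP14 (edgeR adjusted p = 0.640), 0.58 ± 0.09 for MMP15 (adjusted p = 4.74e-07), -0.49 ± 0.06 for TIMP1 (adjusted p = 1.28e-08) and -3.18 ± 0.07 for TIMP2 (adjusted p = 5.59e-28). Which members differed, and by how much, thus depended on the LoVo labels.

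Other genes of pericellular proteolysis were counted over whole lists, which were chosen with earlier results of these data known. The genes named from them here were called in the same direction in each of the 5 clones. Of the 17 other MMP genes and TIMP4, 8 were tested in MDST8, of which 4 were called in clone 1.1 (19.5% of all genes tested), 2 in 2.2 (14.7%), 5 in 3.2 (17%), 4 in 3.5 (18.5%) and 5 in 3.6 (27.0%). MMP11 (stromelysin-3) was called higher in each clone, at 0.67 to 2.22 on the log2 scale. Of the 21 genes of the plasminogen system, proprotein convertases and related surface proteins, 13 were tested and 3, 3, 4, 4 and 5 were called in clones 1.1, 2.2, 3.2, 3.5 and 3.6, against the same shares. SERPINB2, an inhibitor of plasminogen activators, was called lower in each clone, at -3.33 to -1.70, from 219 ± 10.7 CPM in WT to between 21.9 and 67.8 CPM. LRP1, an endocytic receptor that clears proteases and their inhibitor complexes, was called higher in each, at 0.68 to 1.25. Of the 24 ADAM and ADAMTS proteases, 19 were tested and 10, 7, 9, 10 and 12 were called in the same order of clones, against the same shares, with ADAMTS10, ADAMTS12 and ADAMTS14 higher in each clone. ADAMTS14, a procollagen N-propeptidase, rose from 130 ± 4.86 CPM in WT to between 289 and 513 CPM. The share of all genes called in the same direction in each clone was not counted.

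MMP10 (stromelysin-2), a neighbour of MMP1 in the cluster of MMP genes on chromosome 11, was singled out after its values were seen. It gave 74, 50 and 25 counts in WT, 45, 46 and 54 in clone 2.2 and 58, 80 and 87 in clone 3.5, but 268, 366 and 336 in clone 1.1, 431, 488 and 508 in clone 3.2 and 549, 530 and 497 in clone 3.6. The last 3 clones lay above all other MDST8 libraries. Its log2 fold changes were 2.67 ± 0.17 in clone 1.1, 3.18 ± 0.16 in 3.2, 3.27 ± 0.16 in 3.6, 0.65 ± 0.21 in 3.5 and -0.06 ± 0.23 in 2.2 (SE, edgeR). Clones 3.2 and 3.6 were thus the highest for both MMP10 and MMP1, whereas clone 1.1 was high for MMP10 and overlapped WT for MMP1. Of the other MMP genes, also picked after their values were seen, MMP3, MMP8 and MMP12 did not share this rise. MMP3 did not pass the filter on low counts. It averaged 3.22 CPM in WT, 0.844 in clone 1.1, 0.550 in clone 3.2 and 0.344 in clone 3.6. In the same order MMP8 averaged 2.61, 1.85, 1.39 and 0.672 CPM and MMP12 2.88, 2.25, 2.47 and 1.02 CPM. MMP19, at 4.33, 13.8, 9.05 and 4.15 CPM, and MMP16, at 81.1, 135, 131 and 84.9 CPM, were higher in clones 1.1 and 3.2. MMP11 was higher in each clone.

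In LoVo 52.7% of all genes tested were called, 26.6% higher and 26.1% lower, and the counts of the same lists stand beside these shares. The filter took both labelled groups together, so a gene could enter through the group in which it was higher. The list counts therefore support nothing by themselves. Of the plasminogen-system list, 11 of 17 tested genes were called, 6 of them higher under TWIST1 shRNA and the other 5 lower. PLAU, which encodes urokinase, was higher by 4.11 on the log2 scale, from 11.2 ± 1.71 to 189 ± 12.1 CPM. PCSK6 and SERPINE2 were lower, at -2.64 and -1.69. Of the other MMP genes and TIMP4, 5 of 6 tested were called, with MMP19 and MMP25 higher by 2.81 and 2.06, and TIMP4 and MMP28 lower, at -2.59 and -2.38. MMP19 averaged 0.404 CPM under shRNA control and TIMP4 0.522 CPM under TWIST1 shRNA. Each passed the filter through the group in which it was higher, so this count supports nothing by itself. Of the ADAM and ADAMTS genes, 11 of 13 were called, with ADAMTS14 and ADAMTS2 highest, at 7.17 and 6.34, and ADAMTS9 and ADAM22 lower, at -4.91 and -0.59. This list also held genes low in the group labelled shRNA control, such as ADAM8, at 0.528 CPM there and 2.11 CPM under TWIST1 shRNA. Of the AP-1 and ETS factors, whose sites lie in many MMP promoters, 15 of 16 were called, 10 higher and 5 lower. FOSB and FOS were higher by 5.57 and 3.76, and ELF3 and FOSL2 were lower, at -1.55 and -1.49. In the MDST8 clones 14 of these 16 factors were tested and 1, 2, 4, 2 and 7 were called in clones 1.1, 2.2, 3.2, 3.5 and 3.6, against 19.5%, 14.7%, 17%, 18.5% and 27.0% of all genes.

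TWIST1 peaks near the members were read from the deposited lists, which were made at a permissive threshold of p below 0.05 from 1 ChIP library per line, so that there is no replicate check. In MDST8, 6 of the 10 members (MMP2, MMP7, MMP15, MMP24, TIMP2 and TIMP3) had a listed peak within 3000 bp of the 5′ end, against 63.1% of all 62703 genes. In LoVo, 6 of 10 (MMP1, MMP14, MMP15, TIMP1, TIMP2 and TIMP3) had one, against 55.7% of all genes. These shares are near the background. With peaks of a q-value of at most 0.05, no member had a peak in either line, against 0.437% of all genes in MDST8 and 0.362% in LoVo. In MDST8, the peaks of MMP2, MMP7, MMP15, TIMP2 and TIMP3 had their summits in an intron of the gene itself, and MMP24 had a summit in its own intron and another upstream, in an intron of MMP24OS. In LoVo, the summits of MMP14, MMP15 and TIMP2 lay upstream and outside genes, that of MMP1 lay at -820 bp, in an intron of the pseudogene WTAPP1, and that of TIMP1 lay in its own intron. The 3 TIMP3 summits in LoVo lay in SYN3 introns, 1 of them also in an intron of TIMP3.

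**Figure D4:**
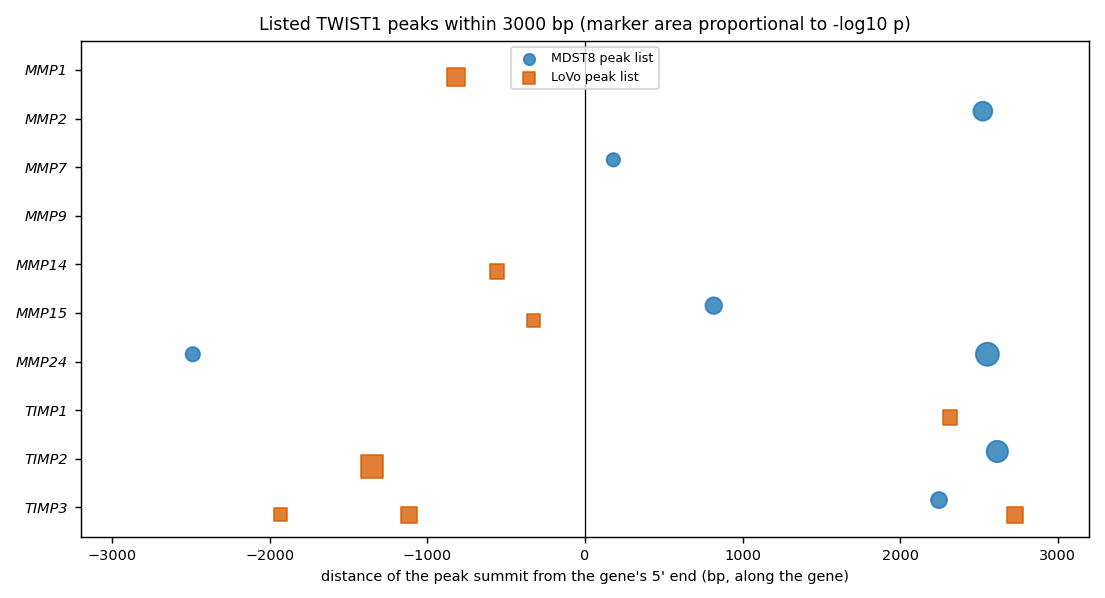
Distance in bp of the summit of each listed TWIST1 peak from the 5′ end of the gene, positive along the gene, for the 10 members (rows) in the MDST8 list (circles) and the LoVo list (squares), with marker area proportional to -log10 p. Within 3000 bp of the 5′ end, MMP15, TIMP2 and TIMP3 had peaks in both lists and MMP9 had none.

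The summit with 50 bases on either side is shown, along the gene's strand, for the peak nearest to a 5′ end, that of MMP7 in MDST8, and for the member peak with the lowest p-value in MDST8, that of MMP24. Capitals mark CATCTG on either strand.
MMP7 peak summit in MDST8, hg38 chr11:102530520-102530620, minus strand: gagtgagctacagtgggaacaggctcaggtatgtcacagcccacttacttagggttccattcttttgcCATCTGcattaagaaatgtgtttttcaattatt
MMP24 peak summit in MDST8, hg38 chr20:35229193-35229293, plus strand: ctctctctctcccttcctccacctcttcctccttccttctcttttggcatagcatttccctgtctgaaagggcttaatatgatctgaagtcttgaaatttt
The MMP7 peak spans chr11:102530357-102530626 of hg38 and its summit lies 180 bp inside the gene, in an intron, with a fold enrichment of 1.69 (a MACS2 p-value of 0.0413 and a q-value of 1.0). It was the only 1 of the 7 member peaks in MDST8 to hold CATCTG within 50 bp of the summit, against 7.46% of all 338877 MDST8 peaks, and none of the 8 member peaks in LoVo held it, against 7.37% of 333621. The MMP24 peak, chr20:35229074-35229402, had a fold enrichment of 3.29 (a p-value of 8.41e-05 and a q-value of 0.308).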

How the data were processed

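RNA-seq and TWIST1 ChIP-seq files were analysed as deposited. For each library the authors deposited a raw count of fragments per gene, made with Trim Galore 0.6.6, HISAT2 2.1.0 (hg38), SAMtools 1.6 and featureCounts 2.0.0 on GENCODE 43. Strand was not used, and fragments on more than 1 gene were not counted. The deposited tables also give another value, the exon length in bp, used here for CPM per kb. For each peak the authors deposited a score, a fold enrichment (a ratio), a p-value and a q-value as -log10, and another value in bp, the summit's offset within the peak, from Bowtie2 2.4.5 and MACS2 2.2.7.1. Use of the input as control is not given in the sources used here.

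Libraries were grouped by labels. Genes were kept where the geometric mean of RPM + 1, minus 1, reached 1 in a line. Counts were TMM-normalized and tested with edgeR 4.0.16 (R 4.3.3) by its quasi-likelihood test, with 18 MDST8 or 6 LoVo libraries per fit and all 24 for contrasts between lines. Calls needed a log2 fold change beyond 0.58 in either direction and an adjusted p (Benjamini-Hochberg) under 0.05, and the F test among clones and the contrast of the lines needed the adjusted p alone. Levels are TMM-normalized CPM over the 24 libraries. Permutation tests (SciPy 1.17.1) used log2(CPM + 0.5) for levels and log2 of the ratio for ratios within a library. A count of 0 was set at a floor of 3 counts per library, 0.135 to 0.181 CPM, which covers counting error only. Fits and overlap functions were tested on simulated data. Alternatives were DESeq2 1.42.0, limma 3.58.1, other normalizations and filters, a replicate block and leaving out libraries, and, added later, the LoVo difference turned.

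The members and gene lists were chosen with earlier results of these data known. All 10 members are named. Of each list, genes called in 1 direction in each of the 5 clones are named, and for LoVo the 2 with the largest rise and the 2 with the largest fall. A gene that this rule selects and a sequence are not reported here. For the 3 members of widest range in MDST8, the 3 genes of highest Pearson r are named.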

Additional observations from a re-analysis of the deposited data

Results flagged for a closer look

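For 3 members, the difference between the labelled groups in LoVo differed from the mean difference of the 5 KO clones from WT in MDST8, by a contrast in edgeR's quasi-likelihood test over all 24 libraries. The value was -1.03 on the log2 scale for MMP14, -0.36 for TIMP1 and 2.16 for TIMP2. At the same threshold 79.0% of all genes tested differed. Cell line, method of perturbation and the disagreement between LoVo labels and TWIST1 counts cannot be told apart in this contrast. Without replicate 1 of the LoVo libraries labelled TWIST1 shRNA the values were -0.98, -0.31 and 2.23. These values rest on LoVo labels that the TWIST1 counts go against. With the LoVo difference turned they were -0.03 for MMP14, which no longer differed, -0.49 for TIMP1 and -3.18 for TIMP2, and MMP15 differed by 0.58.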

How the results depend on the processing

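Calls of single members changed in few settings. Of 920 alternative values, 912 kept their side of the threshold. Of the rest, 6 became called, 4 of them TIMP1 (clone 3.2 in 2 settings, MDST8 WT against LoVo in 2), 1 MMP2 in clone 3.6, at 0.61 with limma on log2(count + 1), and 1 MMP15. The last, a loss for MMP14 (-0.03) and a reversal for TIMP2 (-3.18) came with the LoVo difference turned in the contrast of the lines, added after the data were seen. Leaving out single libraries moved the genes called to 2599 to 2706 in clone 1.1, 1898 to 2026 in 2.2, 2286 to 2322 in 3.2, 2416 to 2560 in 3.5, 3645 to 3787 in 3.6, 7419 to 7505 in LoVo, 10433 to 10484 between the lines, 9378 to 9583 for the contrast of the lines and 10775 to 11012 among clones, and the members called in clone 3.2 from 2 to 3. Without a filter, 6 of 10 LoVo members were called, beside 10444 of 31917 genes. With filterByExpr 5 of 8 were called, beside 8852 of 16228 genes, against 3 of 6 in the main fit. For the contrast of the lines, 7 of 10 members were called without a filter, beside 11928 of 39829 genes. With filterByExpr 7 of 9 were called, beside 11799 of 19169 genes, against 3 of 4 in the main fit. More members were tested in each of these settings. For MDST8, members with a promoter peak numbered 2 within 1000 bp (37.0% of all genes), 8 within 5000 bp (76.5%), 2 at p of at most 0.001 (17.9%) and 0 at q of at most 0.05 (0.437%), against 6. For LoVo they numbered 4 (28.4%), 10 (71.5%), 1 (16%) and 0 (0.362%), against 6. The lists thus limit what can be said of binding. In MDST8, libraries of the same replicate letter did not deviate together (correlation -0.146 to 0.12, above 0.1 in 3 of 45 pairs), so no pairing by letter was seen. Whether libraries of the same letter were prepared together is not given by the labels. A replicate block gave 2665, 2006, 2326, 2528 and 3704 genes called in clones 1.1, 2.2, 3.2, 3.5 and 3.6 and changed no call of a member. No paired analysis was possible because the LoVo libraries labelled TWIST1 shRNA carry no letters, for the LoVo comparison and the contrast of the lines. Limma on log2(count + 1) moved the median of all genes by 0.125 in clone 3.6 and 0.139 between the lines, and for the contrast of the lines limma on log2(RPM + 1) moved it by 0.112 and upper-quartile factors by 0.1002.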
